A study of Mus musculus with 4 samples.

Results

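The 7 genes Cdkn1a, Cdkn1b, Cdkn1c, Cdkn2a, Cdkn2b, Cdkn2c and Cdkn2d encode the inhibitors of cyclin-dependent kinases (CDKs), and they were chosen by name from the 55413 genes of the GENCODE basic annotation. For these genes, the binding of the transcription factor MIZ-1 was read from 2 lists of ChIP-seq peaks. Each list came from 1 ChIP library of B220+ splenocytes (spleen cells of the B lineage) and 1 input library of the same cells was made for each genotype. One list is from wild-type mice (MIZ-1WT). The other is from MIZ-1DPOZ mice, in which Cre recombinase under the B cell promoter MB1 deletes the floxed exons for the POZ domain of MIZ-1, so that a truncated protein that keeps its zinc fingers is made. Both lines were on a C57BL/6 background, the labels give no age (the study's methods give an age range for its experiments as a whole), and the number of animals behind each library is not given in the sources used here. How B cell subsets were represented in each B220+ pool was not measured in these lists. By flow cytometry of spleens, the study found a loss of follicular B cells and a higher frequency of marginal zone B cells in MIZ-1DPOZ mice. How this bears on the lists was not tested. In the promoters and bodies of the 7 genes lay 2 of the 34207 MIZ-1WT peaks and 9 of the 78356 MIZ-1DPOZ peaks on the standard chromosomes. With 1 ChIP library per genotype no difference has a replicate, so each comparison sets one library against the other and carries no test of the genotypes.

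CDK inhibitors hold cells out of the division cycle. The CIP/KIP proteins p21 (Cdkn1a), p27 (Cdkn1b) and p57 (Cdkn1c) bind complexes of cyclins with their CDKs, and the INK4 proteins p16 (Cdkn2a), p15 (Cdkn2b), p18 (Cdkn2c) and p19INK4D (Cdkn2d) bind CDK4 and CDK6 and keep them from D-type cyclins. MIZ-1, encoded by Zbtb17, is known to activate Cdkn1a and Cdkn2b from sites close to their starts, and MYC, when bound to MIZ-1, represses them. The POZ domain lets MIZ-1 form dimers and recruit cofactors, while the zinc fingers contact DNA.

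A promoter peak was a peak that overlapped the window from 2000 bp before to 1000 bp after any annotated start of the gene by at least 1 bp. The MIZ-1DPOZ list held a promoter peak at 5 of the 7 genes, namely Cdkn1b, Cdkn1c, Cdkn2a, Cdkn2b and Cdkn2c. The MIZ-1WT list held one at 2, Cdkn1b and Cdkn2c. Cdkn1a and Cdkn2d had no promoter peak in either list. Only at Cdkn2c did promoter peaks of the lists overlap. The figures for all genes were 16.9% with a MIZ-1WT promoter peak, 28.9% with a MIZ-1DPOZ promoter peak, 12.5% with overlapping promoter peaks and 14.8% with a MIZ-1DPOZ but no MIZ-1WT promoter peak. In both lists more genes had a promoter peak than the study counts annotated promoter regions bound in that genotype. A promoter peak here need therefore not be one that the study counted. Over the 21938 protein-coding genes the shares above were 30.9%, 48.7%, 23.6% and 22.0%. They rose to 50.5%, 71.6%, 39.5% and 27.1% over the 10920 protein-coding genes with a CpG-rich start, meaning a GC content of at least 50% and an observed to expected CpG ratio of at least 0.6 from 250 bp before to 50 bp after the start.

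Set against these shares, the MIZ-1DPOZ count of 5 of 7, or 71.4% (95% Wilson interval 35.9 to 91.8), was above the shares of all genes and of protein-coding genes and close to that of CpG-rich genes, and its interval left out the first. The MIZ-1WT count of 2 of 7, or 28.6% (8.22 to 64.1), was above the share of all genes, close to that of protein-coding genes and below that of CpG-rich genes, and its interval included all of these. Overlapping promoter peaks, at 1 of 7 or 14.3% (2.57 to 51.3), were close to the share of all genes and below those of the other classes, again with an interval that included all of them. Cdkn1c, Cdkn2a and Cdkn2b, the 3 genes with a promoter peak called in the MIZ-1DPOZ list only, made 42.9% of the members (15.8 to 74.95). This interval includes the shares of protein-coding and CpG-rich genes and lies just above that of all genes. With 7 genes the intervals are wide, and they cover counting error only. The members were chosen by name with earlier results of these data known, and Cdkn2a and Cdkn2b are neighbours. The class of all genes also holds noncoding genes, unlike the members. The intervals are therefore no test of the members against the classes, and no conclusion is drawn from a share that lies outside one. All members but Cdkn2c have a CpG-rich start. Of these 6 genes 4 had a MIZ-1DPOZ promoter peak, 1 a MIZ-1WT promoter peak and 0 overlapping promoter peaks (0 to 39.03). The CpG-rich class was chosen after seeing the data, and it leaves out Cdkn2c, the only member with overlapping promoter peaks. No conclusion is therefore drawn from the 0 of 6.

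**Figure D1:**
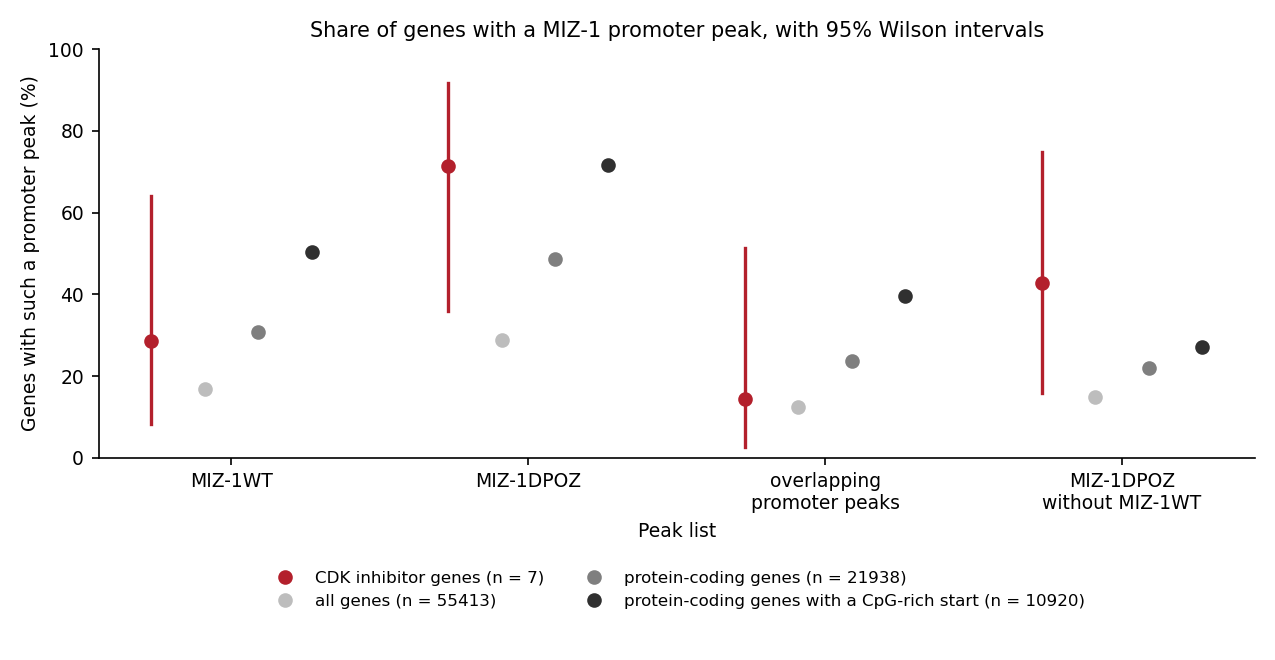
Share of genes with a promoter peak (percent of genes, vertical axis) for MIZ-1WT, for MIZ-1DPOZ, with overlapping peaks of the lists, and for MIZ-1DPOZ without a MIZ-1WT promoter peak. Points are shares and bars 95% Wilson intervals for the 7 CDK inhibitor genes (red) and 3 classes of genes (grey to black): 71.4% of the 7 genes and 71.6% of protein-coding genes with a CpG-rich start had a MIZ-1DPOZ promoter peak. Of the 6 members with a CpG-rich start 4 had one (66.7%), and this class was chosen after seeing the data.

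For each peak the authors give a fold enrichment over the local background and a −log10 q at the summit, the point of highest signal. The number of fragments over the summit (the pileup) was recovered from these scores. The most frequent background was 0.860 fragments for MIZ-1WT and 1.348 for MIZ-1DPOZ, and the latter library was estimated to be 1.34 times as deep. Promoter peaks rested on few fragments, with a median pileup of 9 for MIZ-1WT (quartiles 8 and 11) and 12 for MIZ-1DPOZ (quartiles 10 and 15).

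**Figure D2:**
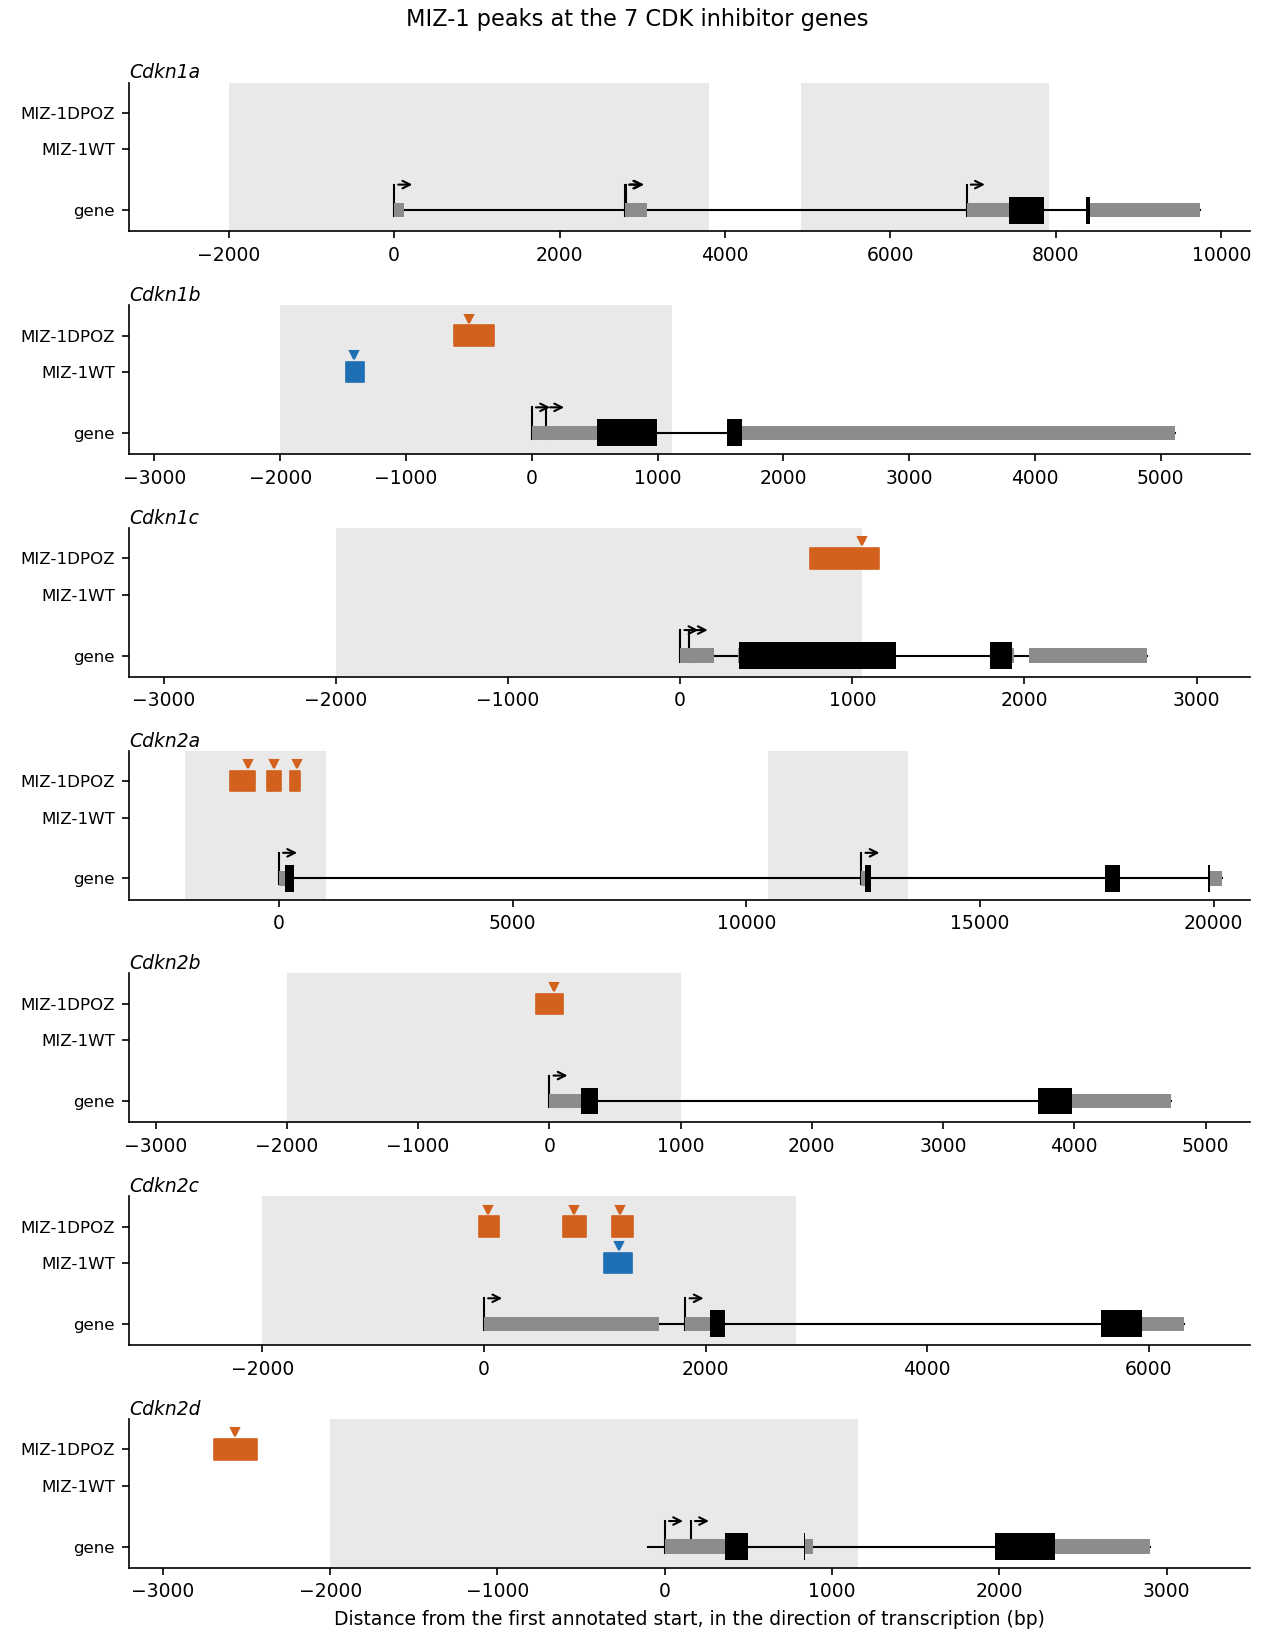
Peaks at the 7 genes, drawn along the distance in bp from the first annotated start in the direction of transcription (horizontal axis, 1 scale per gene). Coding exons are black, other exons grey, bent arrows mark starts, grey shading is the promoter window, coloured boxes are peaks of each list and triangles their summits: 5 genes have MIZ-1DPOZ promoter peaks (orange), 2 have MIZ-1WT promoter peaks (blue), and promoter peaks of the lists overlap only at Cdkn2c.

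Among the CIP/KIP genes, Cdkn1a (ENSMUSG00000023067) lies on chromosome 17 from 29090976 to 29100727 on the plus strand of GRCm38, the assembly also called mm10. It encodes p21, which p53 induces after DNA damage and which MIZ-1 and MYC are known to regulate in opposite directions. None of its 4 starts had a promoter peak in either list, although 2 of them are CpG-rich, with GC contents of 64.7% and 65.7%. The nearest summits lay 6439 bp (MIZ-1WT) and 6437 bp (MIZ-1DPOZ) beyond its last start, past the 3′ end of the gene, and these peaks overlapped. The MIZ-1WT peak there had a fold of 4.92 at 23 fragments and the MIZ-1DPOZ peak a fold of 2.83 at 17 fragments. Both summit windows (100 bp to each side) were 100% repeat-masked, and the summit sequence occurred 9 times in the genome, so the reads of these peaks cannot be placed at Cdkn1a with certainty. A further MIZ-1WT peak lay 7785 bp beyond the last start with a fold of 7.18 and a −log10 q of 16.6, and it too was mostly repeat (95.02% masked, 6 copies).

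Cdkn1b (ENSMUSG00000003031), on chromosome 6 from 134920401 to 134925513 on the plus strand, encodes p27, which holds resting lymphocytes out of division. It had 1 promoter peak in each list, at different places. The MIZ-1WT peak (134918922 to 134919069, 148 bp, intergenic) had its summit 1414 bp before the start, with a fold of 4.95, a −log10 q of 3.62 and 9 fragments. The MIZ-1DPOZ peak (134919780 to 134920103, 324 bp, intergenic) had its summit 501 bp before the start, with a fold of 4.26, a −log10 q of 3.37 and 9 fragments. The summits were 913 bp apart and the peaks did not overlap. The MIZ-1WT pileup equalled the median of promoter peaks in its list, whereas only 16.2% of MIZ-1DPOZ promoter peaks had a pileup as low as that of Cdkn1b. The sequences of the peaks around their summits are given to show how these places differ, with any CACGTG (the E-box that MYC and other bHLH proteins bind), GGGCGG (the GC box of SP1 proteins) or CCAAT, on either strand, in capitals. They run in the direction of transcription, chr6:134918937-134919037 and chr6:134919850-134919950, both on the plus strand.
Cdkn1b, MIZ-1WT summit: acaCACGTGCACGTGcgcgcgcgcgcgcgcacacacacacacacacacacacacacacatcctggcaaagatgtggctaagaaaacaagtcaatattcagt
Cdkn1b, MIZ-1DPOZ summit: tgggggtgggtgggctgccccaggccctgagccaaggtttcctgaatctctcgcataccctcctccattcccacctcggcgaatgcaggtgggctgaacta
The MIZ-1WT stretch opens with 2 adjoining E-boxes and goes on as a run of CG and then CA pairs before other sequence, and 57.2% of its summit window was repeat-masked. The MIZ-1DPOZ stretch holds none of the searched letters and 11.9% of its window was masked. Both summit sequences occur once in the genome.

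Cdkn1c (ENSMUSG00000037664), on chromosome 7 from 143458339 to 143461050 on the minus strand, encodes p57 and is imprinted, with expression from the maternal allele. It had no MIZ-1WT promoter peak, and the nearest MIZ-1WT summit lay 14988 bp beyond its start, outside the gene. The MIZ-1DPOZ list held 1 promoter peak (143459894 to 143460298, 405 bp) with a fold of 6.49, a −log10 q of 11.97 and 24 fragments. This was the highest pileup among the promoter peaks of the members, and 96.5% of MIZ-1DPOZ promoter peaks had a pileup no higher. Its summit lay in the coding exon 1005 bp after the nearer start, just outside the window that the peak itself reaches into, and within an exon of Gm44732, a gene on the opposite strand whose start is 1247 bp from that of Cdkn1c. The local background there was 2.85 fragments, above the usual 1.348 of the list. The summit sequence is shown because it belongs to the strongest promoter peak of the members and is coding (chr7:143459941-143460041, minus strand).
Cdkn1c, MIZ-1DPOZ summit: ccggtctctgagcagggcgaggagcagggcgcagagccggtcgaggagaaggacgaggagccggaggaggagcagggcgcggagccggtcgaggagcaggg
The stretch has a GC content of 73.3% and holds none of the searched letters, and the summit sequence is single-copy.

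Among the INK4 genes, Cdkn2a (ENSMUSG00000044303) lies on chromosome 4 from 89274471 to 89294653 on the minus strand. It has 2 starts: the distal one opens the transcript for p19ARF, which frees p53 from MDM2, and the proximal one that for p16. The MIZ-1DPOZ list held 3 promoter peaks, all at the ARF start, while the window of the p16 start held none in either list. Their summits lay 671 bp before the start (89295173 to 89295693, fold 5.83, −log10 q 7.03, 14 fragments), 95 bp before it (89294618 to 89294897, fold 5.55, −log10 q 6.29, 13 fragments) and 389 bp after it in the first intron (89294191 to 89294418, fold 4.72, −log10 q 4.51, 11 fragments). The MIZ-1WT list held no peak near the gene, and its nearest summit was 125468 bp away. The ARF start is the most GC-rich of the members' 15 starts, at 76.3%, against 60.3% at the p16 start, which is not CpG-rich. The bases just before the ARF start, all inside the peak that covers it (chr4:89294654-89294773, minus strand), are shown with the GC box in capitals.
Cdkn2a, 120 bases before the ARF start: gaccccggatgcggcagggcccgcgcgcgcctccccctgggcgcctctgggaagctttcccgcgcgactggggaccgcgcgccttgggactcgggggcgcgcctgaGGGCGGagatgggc

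Cdkn2b (ENSMUSG00000073802) lies 16386 bp from the ARF start, on chromosome 4 from 89306299 to 89311039 on the minus strand. It encodes p15, which TGF-β induces, and the stretch around its start is a known place of MIZ-1 and MYC action. The MIZ-1DPOZ list held 1 promoter peak (89310933 to 89311140, 208 bp) whose summit lay in the 5′ untranslated region, 34 bp after the start, with a fold of 5.54, a −log10 q of 5.96 and 12 fragments, the median pileup of promoter peaks in that list. The nearest MIZ-1WT summit lay 109082 bp from the start. The part of the peak before the start (chr4:89311040-89311140, minus strand) holds none of the searched letters.
Cdkn2b, 101 bases before the start: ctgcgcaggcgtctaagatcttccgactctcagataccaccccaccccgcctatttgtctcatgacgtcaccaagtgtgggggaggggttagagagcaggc

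Cdkn2c (ENSMUSG00000028551), on chromosome 4 from 109660876 to 109667189 on the minus strand, encodes p18, a brake on the division of B lineage cells and a gene needed for plasma cell formation. It was the only member with overlapping promoter peaks. The MIZ-1WT peak (109665856 to 109666105) had a fold of 6.45, a −log10 q of 6.03 and 11 fragments, with its summit 602 bp before the proximal start. The MIZ-1DPOZ peak (109665842 to 109666032) had a fold of 4.85, a −log10 q of 4.98 and 12 fragments, with its summit 588 bp before that start. The peaks shared 177 bp and their summits were 14 bp apart, inside the first, untranslated exon of the longer transcript. Scaled for depth, the ratio of the MIZ-1DPOZ to the MIZ-1WT pileup was 0.814 (exact 95% binomial interval 0.329 to 2.03), so that a difference in height was not detectable at this depth. The 30 bases around both summits (chr4:109665953-109665982, minus strand) are shown as the only promoter site that the lists share.
Cdkn2c, shared summits: gacgggcttggcgggggtctgccgcacacc
The MIZ-1DPOZ list held 2 further promoter peaks at this gene, with summits 37 bp (109667055 to 109667236, fold 5.15, 12 fragments) and 812 bp (109666270 to 109666479, fold 4.19, 10 fragments) after the distal start. These did not overlap a MIZ-1WT peak. Neither start of Cdkn2c is CpG-rich, with GC contents of 48.7% and 44.0%, yet the windows at the 4 summits had GC contents from 68.2% to 77.1%, above those of the start windows.

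Cdkn2d (ENSMUSG00000096472), on chromosome 9 from 21288410 to 21291407 on the minus strand, encodes p19INK4D. Both of its starts are CpG-rich, with GC contents of 68.7% and 62.3%, and neither had a promoter peak. The nearest MIZ-1DPOZ summit lay 2566 bp before the first start (21293744 to 21294005, fold 5.11, −log10 q 5.05, 11 fragments), in sequence with 8 genomic copies. The nearest MIZ-1WT summit was 21028 bp away, in an untranslated region of Ap1m2. Cdkn1a and Cdkn2d thus had CpG-rich starts without a promoter peak, in lists that leave out sites below the authors' calling limit.

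The heights of the member peaks were ordinary for promoter peaks apart from Cdkn1c. In the MIZ-1DPOZ list, 7 of the 9 peaks had pileups between 10 and 14, within the quartiles of promoter peaks, 1 was below (Cdkn1b) and 1 above (Cdkn1c). Folds ran from 4.19 to 6.49 and −log10 q from 3.37 to 11.97. Whether the 8 MIZ-1DPOZ peaks without a MIZ-1WT partner could have been seen in the shallower library was examined by scaling. Divided by the depth ratio, the 9 pileups became 6.71 to 17.9 fragments, and the smallest pileup that the MIZ-1WT list holds at its most frequent background was 5. That value is the lowest of the list, not a limit above which each site is called. A higher local background calls for more fragments, so the value of 5 does not hold everywhere. The ratio of the most frequent backgrounds was larger, at 1.57, and was not used for this scaling. At Cdkn1c the local background in the MIZ-1DPOZ list was 2.85 fragments, against the usual 1.348. The 17.9 of Cdkn1c was at or above the pileups of 97.2% of MIZ-1WT promoter peaks, and the 6.71 of Cdkn1b above those of 5.65%. A missing MIZ-1WT peak does not show that no fragments lay there, since the lists hold only called peaks, and the part of depth in these missing partners was not tested further.

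Among all MIZ-1DPOZ promoter peaks, 36.9% (36.2 to 37.6) overlapped a MIZ-1WT peak, against 1 of the 9 at the members. The share rose with height, from 24.006% at 6 to 9 fragments, through 31.3% at 10 to 12, 42.6% at 13 to 16 and 49.8% at 17 to 24, to 66.2% at 25 or more. The members' peaks numbered 1, 5, 2 and 1 in the first 4 of these classes. The peak of Cdkn1c, at 17 to 24 fragments, belonged to the class in which nearly as many peaks had a partner as had none. In the MIZ-1WT list 71.5% of promoter peaks overlapped a MIZ-1DPOZ peak, and 1 of the 2 at the members did.

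**Figure D3:**
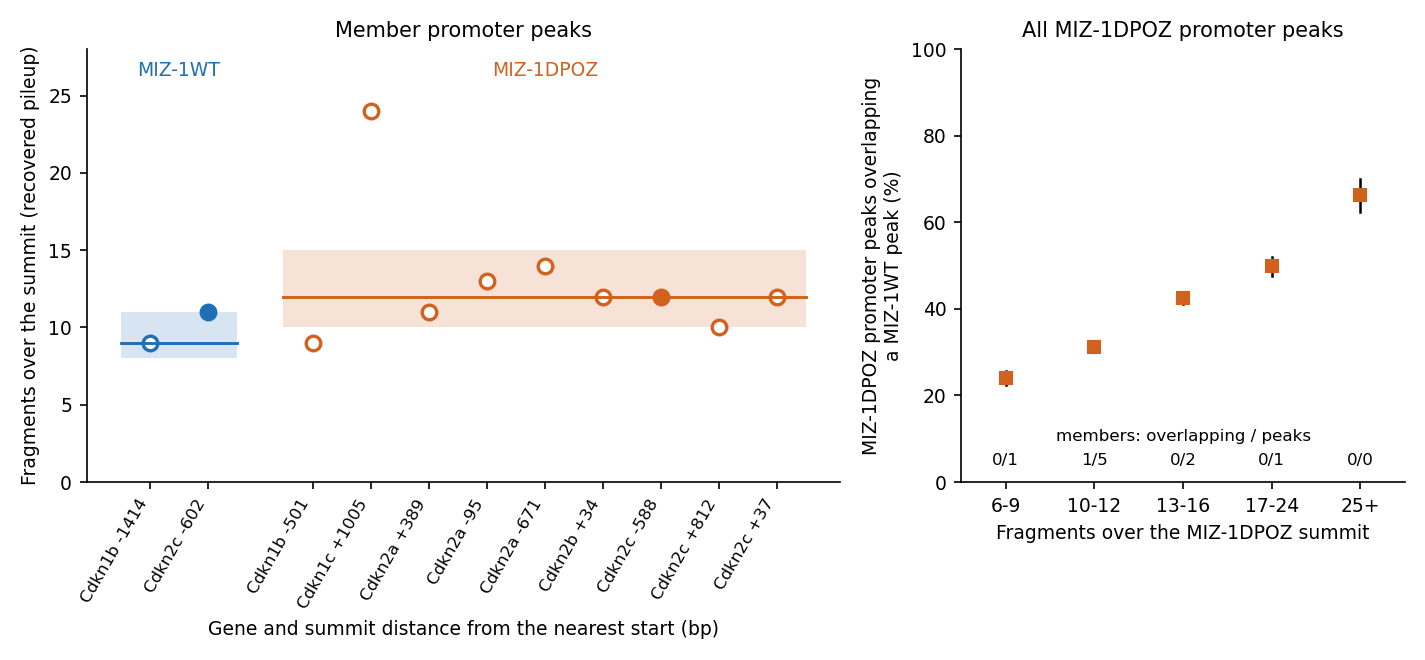
Left, fragments over the summit (vertical axis) for the 2 MIZ-1WT and 9 MIZ-1DPOZ member promoter peaks, each named by gene and summit distance in bp from the nearest start, filled where it overlaps the other list, with the median (line) and quartiles (band) of all promoter peaks of that list. Right, share of all MIZ-1DPOZ promoter peaks that overlap a MIZ-1WT peak (percent, with 95% Wilson intervals) by fragments over the summit, with the member counts: the peak of Cdkn1c stands above the band at 24 fragments, and 1 of the 9 MIZ-1DPOZ member peaks has a partner.

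Summit sequence was read in windows of 100 bp to each side. The 9 MIZ-1DPOZ windows had GC contents from 64.7% to 77.6% (median of all promoter peaks of that list, 69.2%), none was over 50% repeat, and each was single-copy. The MIZ-1WT windows had 77.1% at Cdkn2c and 51.7% at Cdkn1b (list median 72.6%), and only 6.18% of MIZ-1WT promoter peaks had a GC content as low as that of Cdkn1b. A GC box (GGGCGG) was in 6 of the 9 MIZ-1DPOZ windows and in 49.2% of all MIZ-1DPOZ promoter windows. These 6 were the 3 windows of Cdkn2a, the 1 of Cdkn2b and 2 of Cdkn2c. Neither MIZ-1WT window held one, against 59.8% of all MIZ-1WT promoter windows. At Cdkn2c, however, the windows of the overlapping peaks are nearly the same sequence, shifted by 14 bp. The MIZ-1DPOZ window there holds a GC box that the MIZ-1WT window misses. The E-box (CACGTG) was in the MIZ-1WT window of Cdkn1b alone, against 4.26% of MIZ-1WT and 3.71% of MIZ-1DPOZ promoter windows. CCAAT was in none of the 11 windows, against 11.1% and 12.2%. At the 15 starts themselves, from 250 bp before to 50 bp after, a GC box was found at 11 (45.4% of all protein-coding starts and 76.9% of CpG-rich ones), CCAAT at 8 (36.8%) and the E-box at 1, the proximal start of Cdkn2c (7.55%). These windows are not independent, since starts that lie close together in Cdkn1a, Cdkn1b, Cdkn1c and Cdkn2d share sequence.

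Outside promoters and gene bodies, the surroundings of the 7 genes were searched to 25 kb on each side, a distance chosen after seeing the data. A MIZ-1WT peak lay within it for 5 genes, all but Cdkn2a and Cdkn2b, and a MIZ-1DPOZ peak for all 7. A peak is common at this range: 60.2% of all genes and 73.9% of protein-coding genes had a MIZ-1WT peak within 25 kb, and 82.6% and 92.1% had a MIZ-1DPOZ peak. The Cdkn2a and Cdkn2b locus was thus without any MIZ-1WT peak across both genes and their flanks, where the MIZ-1DPOZ list held 5. Beyond the promoters and bodies, the flanks held 13 MIZ-1WT and 24 MIZ-1DPOZ peaks, of which 9 and 9 overlapped the other list (53.7% and 22.1% of all peaks in the lists), 6 and 4 lay in windows over 50% repeat (60.4% and 56.04% of all peaks) and 4 and 5 had multi-copy summits (48.2% and 43.1% of all peaks).

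The flanks of Cdkn1c had the most overlapping peaks. At 15454 and 14988 bp beyond its start the MIZ-1WT list held peaks of 11 and 13 fragments (folds 6.45 and 7.53), and the MIZ-1DPOZ list held overlapping peaks of 17 and 12 fragments (folds 6.81 and 4.92). Another group lay 22451 to 23145 bp beyond the start. All of these summits were intergenic and single-copy. At Cdkn1b an overlapping pair lay in an intron of Lockd, the noncoding gene next to it, 11425 and 11455 bp beyond the start, with 9 and 18 fragments in sequence that was 100% repeat-masked. At Cdkn2c, overlapping pairs lay in an exon of 9630013D21Rik and in the untranslated region of Faf1, its neighbours. In all, 11 pairs overlapped at the members and in their flanks, with depth-scaled ratios of MIZ-1DPOZ to MIZ-1WT pileup from 0.551 to 1.49, and the interval of every one included 1. The lowest was the repeat pair beyond Cdkn1a (0.551, interval 0.276 to 1.08). When scaled by the background instead, its ratio was 0.472 (0.236 to 0.922), the only interval of the 11 that then left out 1. Not all of the 11 pairs are separate sites. At Cdkn1c, 1 pair shared only 22 bp with summits 507 bp apart, and both of its peaks also belong to other pairs.

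**Figure D4:**
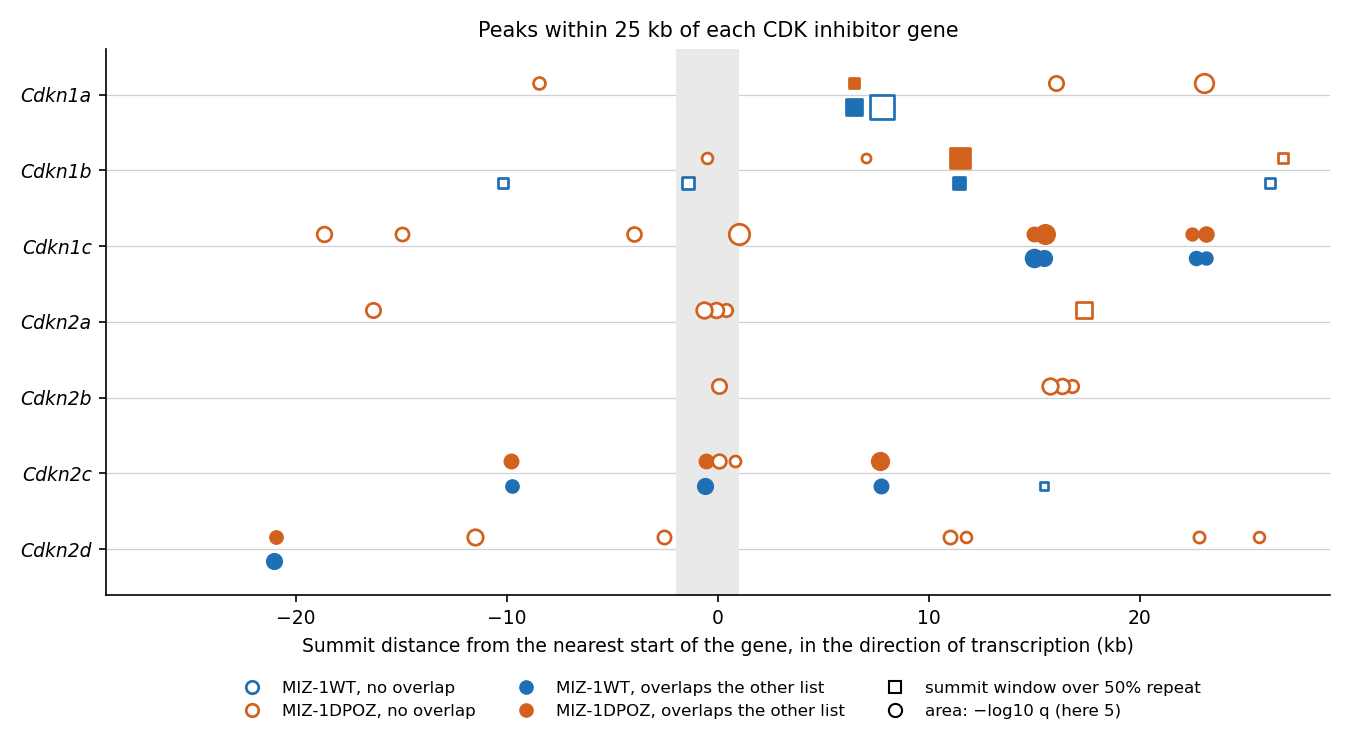
Every peak within 25 kb of the 7 genes by the distance of its summit from the nearest start of the gene in kb (horizontal axis), with MIZ-1DPOZ above and MIZ-1WT below each line, area in proportion to −log10 q, filled where peaks of the lists overlap and square where over 50% of the summit window is repeat. Grey shading is the promoter window; Cdkn2a and Cdkn2b, which share their surroundings, show no MIZ-1WT peak, and the overlapping pair at Cdkn1a is in repeat.

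Promoter peaks were also counted at the cell cycle genes that these inhibitors act on and at their regulators. Of 21 genes for cyclins, CDKs, pocket proteins and E2F factors, 15 had a MIZ-1WT promoter peak (71.4%), 15 a MIZ-1DPOZ promoter peak, 11 both, 7 overlapping peaks and 2 neither. The highest −log10 q in the MIZ-1WT list was at Rb1 (7.06, fold 6.99), the pocket protein that CDK4 and CDK6 phosphorylate, and the next at Ccne2 (5.66), which encodes a cyclin that activates CDK2. In the MIZ-1DPOZ list they were at Ccna1 (14.6, fold 8.78), a cyclin of the germ line, and Rb1 (11.95). The peaks of Rb1 in the lists overlapped and that of Ccna1 had no MIZ-1WT partner. Of 34 regulators, 20 had a MIZ-1WT promoter peak (58.8%), 25 a MIZ-1DPOZ promoter peak (73.5%), 18 both, 16 overlapping peaks and 7 neither. The leading MIZ-1WT peaks were at Foxo1 (−log10 q 8.76), which activates Cdkn1b, and Mdm2 (7.59), the ligase that p19ARF inhibits, and both overlapped a MIZ-1DPOZ peak. The leading MIZ-1DPOZ peaks were at Zbtb17 (11.04, fold 7.67, 431 bp after a start), the gene of MIZ-1 itself, which overlapped a MIZ-1WT peak, and at Ezh2 (9.88), the polycomb methyltransferase that silences Cdkn2a in many cells, which did not. A MIZ-1WT promoter peak was thus found at 2 of 7 inhibitors, 15 of 21 cell cycle genes and 20 of 34 regulators, and a MIZ-1DPOZ promoter peak at 5, 15 and 25. Over all genes the MIZ-1WT and MIZ-1DPOZ shares were 16.9% and 28.9%, and over protein-coding genes 30.9% and 48.7%. Over protein-coding genes with a CpG-rich start they were 50.5% and 71.6%. The genes of each list were chosen with earlier results of these data known. The counts describe the lists and were not tested against each other.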

How the data were processed

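MIZ-1 ChIP-seq was performed with the antibody H-190 on B220+ splenocytes, with 1 ChIP and 1 input library for each of 2 genotypes. Per the study's methods, the authors used Trimmomatic on paired-end reads, bwa for alignment to mm10, and MACS2 for peak calling; whether the input served as control is not stated. The submitters' processing notes name Bowtie2 2.2.6 and MACS2 2.1.0 instead, and which was used for the deposited lists could not be settled. Each deposited list gives the fold enrichment at the summit, a ratio to the local background, and the −log10 of the p-value and of the q-value; the cutoff and how duplicates or multi-mapping reads were treated are not given in the sources used here. The lowest deposited −log10 q values were 1.03 (MIZ-1WT) and 1.01 (MIZ-1DPOZ). Reads and input libraries were not used here.

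Pileup and background were solved from fold and −log10 p under MACS2's formulas, to within 0.001 for 99.97% of MIZ-1WT and 99.99% of MIZ-1DPOZ peaks, and the solver was tested on simulated data. The depth ratio came from the most frequent background divided by the smallest peak width (148 and 173 bp). Starts, exons and gene bodies came from GENCODE vM21 basic on GRCm38, and sequence and soft-masking from the RefSeq copy of that assembly. Coordinates are 1-based. Copy number is the median genomic count of 5 sequences of 50 bases around the summit. Wilson intervals and exact binomial intervals at a fixed depth ratio cover counting error only, since duplicates cannot be told from independent fragments.

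All 7 genes are reported. In each list of related genes, the 2 with the highest −log10 q per peak list are named. The members and lists were chosen with earlier results of these data known, and the 25 kb flank and the CpG-rich class after seeing the data. Alternatives were stricter cutoffs, equal peak numbers, single-copy summits, other promoter and overlap definitions and scaling by the background. Python 3.11.15, numpy 2.4.6, pandas 2.3.3, scipy 1.17.1 and pysam 0.24.0 were used.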

Additional observations from a re-analysis of the deposited data

How the results depend on the processing

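No paired analysis was possible because there was only 1 ChIP library per genotype, and for the same reason no replicate could be left out. Of 67 alternative values, 35 were labelled the same as the reported ones and 32 as moved. These labels do not give the size of a change. Regulators with a MIZ-1DPOZ promoter peak went from 25 to 17 and were labelled the same. The MIZ-1DPOZ share of all genes went from 28.9% to 28.2% and was labelled as moved. The promoter peaks of Cdkn1b depended most on the settings. With the minimum −log10 q or the minimum fold set to 5 it lost both, and it kept only the MIZ-1DPOZ one in a 500 bp window, so that 1 member then had a MIZ-1WT promoter peak and 1 had one in both lists. At equal numbers of peaks, both Cdkn1b and Cdkn2c lost their MIZ-1DPOZ promoter peaks, 3 members had one, 0 had one in both lists and 0 had overlapping ones. Overlapping promoter peaks also numbered 0 with the minimum −log10 q or fold set to 5. For peaks in both lists and overlapping peaks, the shares of all genes at these settings are not given here. Nothing is therefore concluded from these counts of 0. Cdkn1c lost its MIZ-1DPOZ promoter peak when the summit had to lie in the window, when peaks went to their nearest start only and in the 500 bp window; Cdkn2a and Cdkn2b kept theirs under every alternative run. Within 25 kb, 5 members had a MIZ-1WT peak. Member peaks numbered 1 (MIZ-1WT) and 5 (MIZ-1DPOZ) with the minimum −log10 q or fold set to 5, and 4 in the MIZ-1DPOZ list at equal numbers. All genes with a MIZ-1WT promoter peak (16.9%) became 15.9% and 5.45% with the minimum −log10 q set to 2 and 5, 9.32% with the fold cutoff, 15.2% with single-copy summits, 13.8% in the 500 bp window and 14.1% by nearest start. The MIZ-1DPOZ share (28.9%) became 19.4% at the −log10 q cutoff of 5, 18.4% by fold, 14.8% at equal numbers, 25.3% with single-copy summits, 23.5% in the 500 bp window, 28.2% by summit and 25.2% by nearest start. At that −log10 q cutoff, 3 of the 21 cell cycle genes and 5 of the 34 regulators had a MIZ-1WT promoter peak, against 13 and 17 in the MIZ-1DPOZ list. A stricter cutoff leaves fewer peaks by construction; the causes of the other changes were not tested. Pileups of about 10 fragments limit every comparison of heights.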
